A study of Mus musculus with 8 samples.

Results

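The LIM, NK, Iroquois, DLX and TALE homeobox genes were followed in mouse embryonic stem cells (mESCs) with and without Pcgf5 as the cells were taken into neural differentiation. The genes were taken by symbol, as every row named Lhx, Isl, Lmx1, Nkx, Irx, Dlx, Meis or Pbx followed by its number. This choice was made with earlier results of these data known. The symbols gave 45 of the 24849 genes listed, in 8 families, and 43 of them are described here: 13 NKX, 8 LHX, 6 IRX, 6 DLX, 3 PBX, 3 MEIS, 2 ISL and 2 LMX genes. All counts and sums below are over these 43.

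Poly(A) RNA was sequenced from 8 samples of the MPI-II mESC line (strain 129S2/SvPas), 2 for each of 4 groups: wild type (WT) at day 0, Pcgf5-/- at day 0, WT at day 6 and Pcgf5-/- at day 6. Day 0 cells of both genotypes grew on feeder cells with leukemia inhibitory factor and the 2i inhibitors CHIR99021 and PD0325901, and day 6 cells had been moved to the serum-free N2B27 medium, in which mESCs turn to a neural fate. Pcgf5 had been disrupted with TALEN nucleases in exon 2, and knockout cells came from drug-selected colonies picked one by one, and the study describes its samples as biologically independent. The sources used here do not say whether the 2 samples of a group came from separate clones, so p-values measure the spread between these samples. Paired values are given in the order of the replicate numbers.

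Homeobox genes encode transcription factors with a DNA-binding homeodomain, and in the embryo their combinations give cells of the neural tube their position and fate. PBX and MEIS proteins of the TALE class bind DNA together, often with HOX proteins, and Iroquois (IRX) proteins are TALE factors that pattern the neural plate. LIM-homeodomain proteins (LHX, ISL, LMX) act through the cofactor LDB1 and specify neuron types, NKX proteins are known for the ventral neural tube and for heart and gut, and DLX proteins for forebrain interneurons and the face. PCGF5 is a RING finger subunit of a Polycomb repressive complex 1, the enzyme that adds ubiquitin to histone H2A.

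Expression is given as FPKM, fragments scaled to transcript length and to the mapped fragments of the library, so levels of different genes may be set side by side. Differences were tested with limma on log2(FPKM + 1) with Benjamini-Hochberg adjustment over the 13214 genes that averaged more than 1 FPKM in at least 1 group, and a gene is called where the adjusted p is under 0.05. Fold changes are on that scale, which understates the change of weakly expressed genes. The relative depth of the libraries, read from the steps between their lowest values, spanned 1.30-fold. In such bulk samples, fewer cells of a type and less RNA per cell cannot be told apart.

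The targeted gene was checked first. Pcgf5 FPKM was 5.18 and 3.63 in WT and 1.28 and 1.84 in Pcgf5-/- at day 0, and 9.16 and 5.06 in WT and 0.669 and 0.457 in Pcgf5-/- at day 6. Both Pcgf5-/- samples lay below both WT samples on each day, differing by -1.07 at day 0 (adjusted p = 0.105) and by -2.33 at day 6 (adjusted p = 0.00421) on the log2 scale. Cell identity was read from marker lists. The 13 naive pluripotency markers summed to 1805 to 1991 FPKM over the 4 samples of day 0, to 283 and 118 in WT at day 6 and to 900.0 and 776 in Pcgf5-/- at day 6, where 12 of 13 were higher than in WT and 0 lower. The 15 neural progenitor markers summed to 389.8 to 477 FPKM at day 0, mostly Vim (201 to 282) and Sox2 (156 to 175). At day 6 they summed to 992 and 1038 in WT and 506 and 487 in Pcgf5-/-, where 13 of 15 were lower than in WT and 0 higher. From day 0 to day 6, 13 of the 15 were called higher and 1 lower in WT, with a median log2 change of 4.25. In Pcgf5-/- 12 were called higher and 2 lower over the 6 days, with a median of 2.14. Of 12 tested neuron markers 5 were lower in Pcgf5-/- than in WT at day 6 and 0 higher. At day 6, 7.05% of all tested genes were called lower in Pcgf5-/- and 9.57% higher. From day 0 to day 6, 34.2% were called higher and 16.2% lower in WT, and 21.9% and 10.4% in Pcgf5-/-. The marker lists of this paragraph thus differed between the same samples as the homeobox genes described here. Their part in the genotype differences of day 6 was not tested.

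Levels were very uneven between the families. Of the 43 genes, 19 stayed under 1 FPKM in every sample, and 21 entered the tests: 4 of 6 IRX, 3 of 3 MEIS, 3 of 3 PBX, 4 of 13 NKX, 5 of 8 LHX, 1 of 2 ISL, 1 of 2 LMX and 0 of 6 DLX genes. IRX, MEIS and PBX together made up 71.3% to 79.9% of the summed FPKM of the 43 genes in the 4 samples of day 0 and 83.4% to 92.8% in those of day 6. The sum over the 43 genes was 40.5 and 44.7 FPKM in WT and 43.1 and 51.9 in Pcgf5-/- at day 0, against 329 and 392 in WT and 155 and 182 in Pcgf5-/- at day 6. The genotypes lay close together at day 0, and at day 6 both Pcgf5-/- sums lay below both WT sums.

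**Figure D1:**
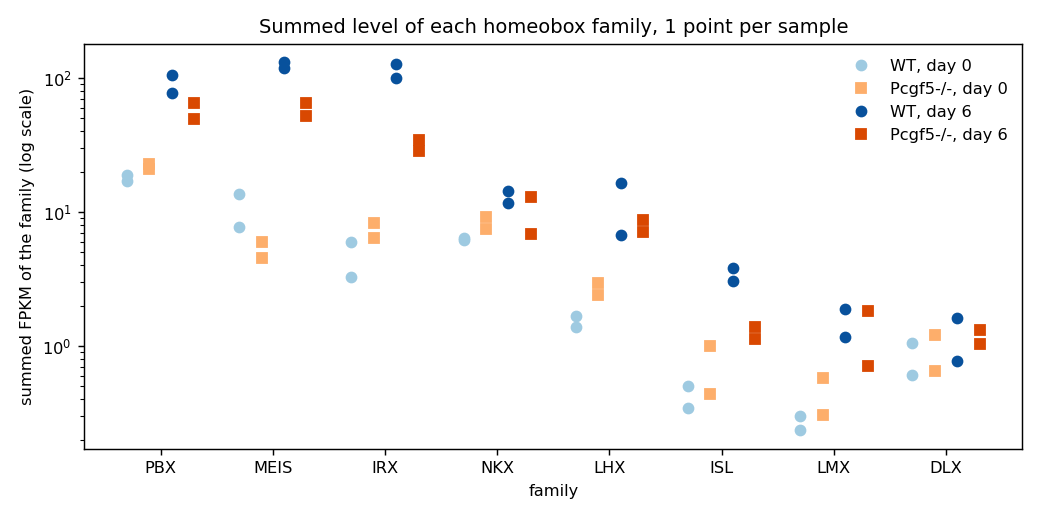
Summed FPKM of each homeobox family (log scale) with 1 point for each of the 8 samples, families in the order PBX, MEIS, IRX, NKX, LHX, ISL, LMX and DLX. At day 6 the PBX, MEIS, IRX and ISL sums of both Pcgf5-/- samples lie below those of both WT samples (IRX 28.5 and 34.2 against 100.5 and 128), and the NKX, LHX, LMX and DLX sums overlap.

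In WT cells 17 of the 21 tested genes were called higher at day 6 than at day 0 and 0 lower, where 34.2% of all tested genes were called higher and 16.2% lower. In Pcgf5-/- cells 12 were higher and 0 lower, against 21.9% and 10.4% of all tested genes. The filter bears on these counts, since 10 of the 21 genes had a mean over 1 FPKM only at day 6 and so entered through the groups in which they were high. The median log2 change of the 21 genes was 2.06 in WT and 1.05 in Pcgf5-/-, beside 0.22 and 0.13 over all tested genes. All 3 MEIS and the 3 PBX genes were called higher at day 6 in both genotypes. Irx1, Irx2, Isl1, Lhx1 and Lmx1b were called in WT and not in Pcgf5-/- cells, but being called in 1 genotype does not show a difference between them, and only for Irx2 did the direct test, that of whether the genotype effect differed with the day, also pass 0.05.

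At day 6, 10 of the 21 tested genes were lower in Pcgf5-/- than in WT and 0 were higher, where 7.05% of all tested genes were called lower and 9.57% higher. The 10 were Irx1, Irx2, Irx3 and Irx5, Meis1, Meis2 and Meis3, Pbx2, Nkx6-1 and Isl1. Their mean level in Pcgf5-/- was between 24.7% (Irx5) and 59.6% (Pbx2) of that in WT. The median log2 difference over the 21 genes was -0.67, beside 0.02 over all tested genes. The filter bears on the count of 10 and on this median too. Of the 21 genes 2 had a mean over 1 FPKM only in WT at day 6, Isl1 (called) and Lhx9 (not called). Both entered because they were high there. Both Pcgf5-/- samples lay below both WT samples for 11 of the 21, the 10 called genes and Pbx3, and above both for 3, with 28.8% and 33.4% of all tested genes in these positions. At day 0 limma called 0 of 21 higher and 0 lower, where it called 0.288% of all tested genes higher and 0.0454% lower, and 3 of the 21 had an unadjusted p under 0.05, as did 2294 of all 13214 genes. Both Pcgf5-/- samples lay above both WT samples at day 0 for 12 of the 21 and below both for 1, with 34.6% and 13.3% of all tested genes in these positions.

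**Figure D2:**
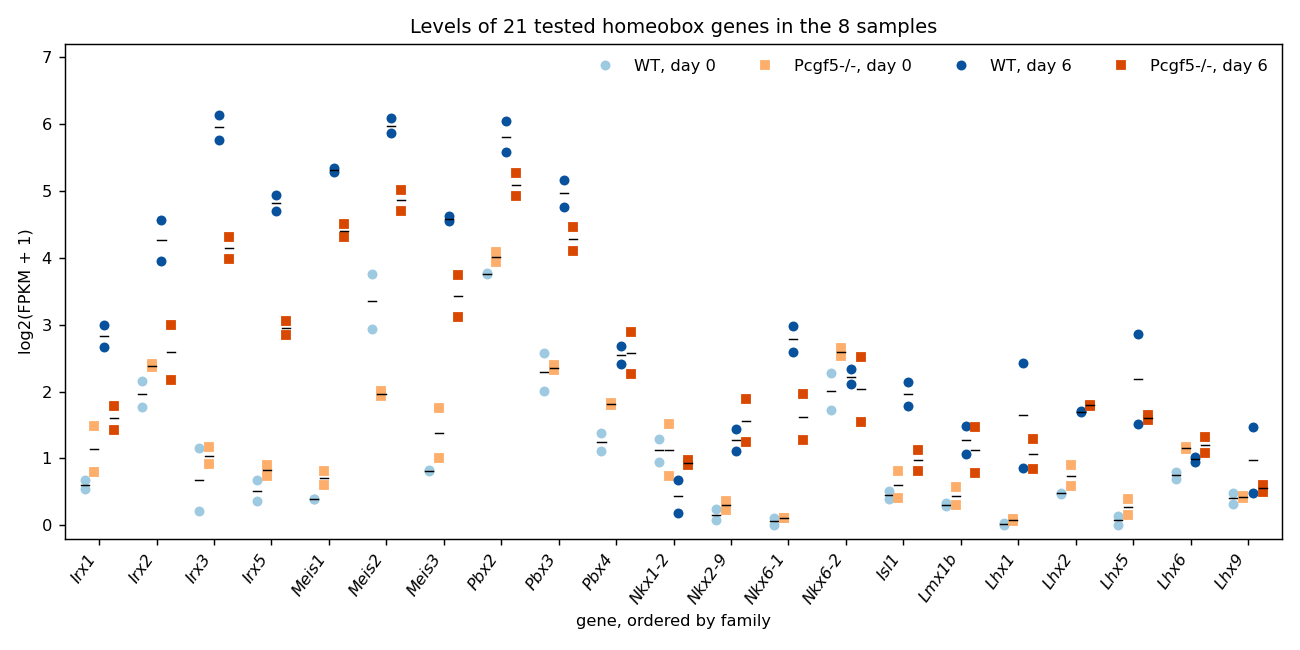
Level of 21 tested homeobox genes as log2(FPKM + 1), ordered by family, with 1 point for each sample (circles WT, squares Pcgf5-/-, pale day 0, dark day 6) and a dash at the mean of each pair. Irx3 at 53.6 and 69.6 FPKM and Meis2 at 57.2 and 67.1 FPKM in WT at day 6 are among the highest points, and the dark squares of Irx3, Irx5, the MEIS genes, Pbx2 and Pbx3 lie between the day 0 and the WT day 6 points.

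The 6 Iroquois genes lie in 2 clusters of 3, Irx1, Irx2 and Irx4 on chromosome 13 and Irx3, Irx5 and Irx6 on chromosome 8. Irx3, which marks neural progenitors of the neural plate and spinal cord, lies at chr8:94322409-94325553 (mm9). Its FPKM was 1.23 and 0.156 in WT and 0.882 and 1.24 in Pcgf5-/- at day 0, and 53.6 and 69.6 in WT and 14.9 and 18.9 in Pcgf5-/- at day 6. The day 0 samples overlapped, and at day 6 both Pcgf5-/- samples were well below both WT samples and well above day 0. The log2 fold change between the genotypes at day 6 was -1.80 (SE 0.31, adjusted p = 0.0104), and that from day 0 to day 6 was 5.27 in WT and 3.11 in Pcgf5-/-. In WT at day 6 Irx3 had the second highest mean of the 21 genes, 61.6 ± 11.3 FPKM (SD, n = 2), next to Meis2 at 62.1 ± 6.94, from which it did not differ beyond the spread. In Pcgf5-/- it was the fifth, at 16.9 ± 2.83 FPKM.

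Irx5, the neighbor of Irx3 in the cluster, was at 0.601 and 0.279 FPKM in WT and 0.673 and 0.873 in Pcgf5-/- at day 0. At day 6 it was at 25.0 and 29.7 in WT and 7.33 and 6.19 in Pcgf5-/-. Both Pcgf5-/- samples lay just above WT at day 0 and far below it at day 6, and the day 6 log2 fold change of -1.87 (SE 0.20, adjusted p = 0.00393) was the largest of the 21 genes in either direction. Irx6, 313 kb beyond Irx5, stayed at or under 0.310 FPKM in all samples and was not tested.

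On chromosome 13, Irx1 FPKM was 0.604 and 0.450 in WT and 0.731 and 1.80 in Pcgf5-/- at day 0, and 6.95 and 5.34 in WT and 2.45 and 1.69 in Pcgf5-/- at day 6. The Pcgf5-/- samples were the higher pair at day 0 and the lower pair at day 6, where the log2 fold change was -1.22 (SE 0.27, adjusted p = 0.0212). From day 0 to day 6 it rose in WT by 2.22 (adjusted p = 0.000329), and in Pcgf5-/- its log2 change was 0.47 (95% interval -0.15 to 1.09, adjusted p = 0.216).

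Irx2 was already present at day 0, at 3.48 and 2.41 FPKM in WT and 4.14 and 4.33 in Pcgf5-/-. At day 6 it was at 14.5 and 22.7 in WT and 3.52 and 7.01 in Pcgf5-/-, so that the Pcgf5-/- samples of day 6 lay on either side of those of day 0. The day 6 difference was -1.67 (SE 0.31, adjusted p = 0.0128), and the change from day 0 in Pcgf5-/- was 0.20 (95% interval -0.52 to 0.92, adjusted p = 0.658) against a rise of 2.29 in WT (adjusted p = 0.000586). Irx4, 626 kb beyond Irx2, stayed at or under 0.418 FPKM and was not tested. In each cluster, then, a pair of genes was high in WT at day 6 and lower in Pcgf5-/-, and the third gene stayed low in both genotypes.

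**Figure D3:**
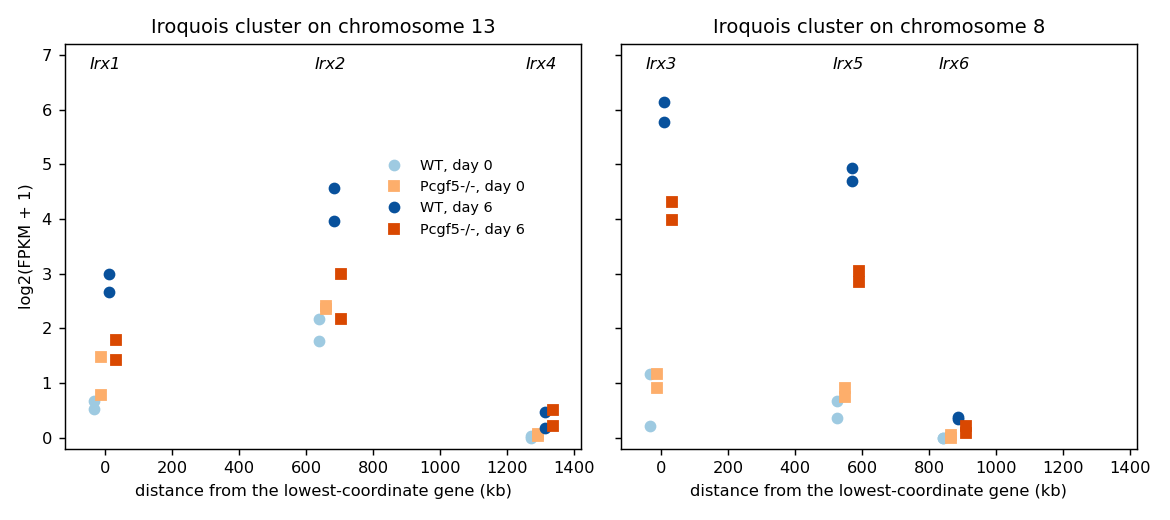
Level of the Iroquois genes as log2(FPKM + 1) against the distance in kb from the first gene of the cluster on chromosome 13 (left) and chromosome 8 (right), with 1 point for each sample, the 4 groups shifted sideways so that points do not hide each other. Irx1, Irx2, Irx3 and Irx5 are lower in Pcgf5-/- than in WT at day 6, and Irx4 and Irx6 stay at or under 0.418 and 0.310 FPKM in all samples.

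The 250 bases before the transcription start of 4 of the lower genes are shown because all 4 genes were called lower in Pcgf5-/- at day 6, from the Iroquois, MEIS and LIM groups, and because PCGF5 belongs to a Polycomb complex, whose known binding sites in mESCs are rich in CpG. They come from RefSeq on build GRCm38.p6, not the build of the expression files. They are written in the direction of the gene with each CpG in capitals. Binding of PCGF5 to them was not examined here.
Irx3, chr8:91801655-91801904, minus strand: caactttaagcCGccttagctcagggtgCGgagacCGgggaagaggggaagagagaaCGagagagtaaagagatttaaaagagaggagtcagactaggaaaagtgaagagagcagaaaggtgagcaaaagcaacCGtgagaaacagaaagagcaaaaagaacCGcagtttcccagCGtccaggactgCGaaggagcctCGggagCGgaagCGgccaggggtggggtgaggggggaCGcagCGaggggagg
Isl1, chr13:116309689-116309938, minus strand: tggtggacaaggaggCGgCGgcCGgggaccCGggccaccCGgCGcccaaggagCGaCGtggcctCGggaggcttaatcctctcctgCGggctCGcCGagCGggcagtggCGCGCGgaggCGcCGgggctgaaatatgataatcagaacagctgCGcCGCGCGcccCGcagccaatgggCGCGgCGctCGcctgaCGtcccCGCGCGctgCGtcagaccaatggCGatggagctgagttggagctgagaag
Meis1, chr11:19018970-19019219, minus strand: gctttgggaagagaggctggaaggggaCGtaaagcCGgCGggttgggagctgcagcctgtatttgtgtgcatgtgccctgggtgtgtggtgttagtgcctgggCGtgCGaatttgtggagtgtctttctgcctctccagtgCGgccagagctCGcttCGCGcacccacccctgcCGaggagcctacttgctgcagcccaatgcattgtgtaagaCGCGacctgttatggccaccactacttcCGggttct
Meis2, chr2:116064620-116064869, minus strand: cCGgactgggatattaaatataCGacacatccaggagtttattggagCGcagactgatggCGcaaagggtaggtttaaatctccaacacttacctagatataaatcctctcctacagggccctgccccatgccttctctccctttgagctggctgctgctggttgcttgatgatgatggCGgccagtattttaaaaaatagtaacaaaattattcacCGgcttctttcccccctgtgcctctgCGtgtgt
The stretches hold 13 CpG in Irx3, 33 in Isl1, 13 in Meis1 and 7 in Meis2. Of the 43 genes, 32 had a promoter in the table, with 36 promoters in all, and their median was 16.5 CpG beside 6 over all 32841 promoters of that length. Of the 10 genes lower in Pcgf5-/- at day 6, 8 had a promoter in the table, and Irx1 and Irx5 had none. The 8 promoters of these lower genes had 7 to 33 CpG with a median of 16, beside a median of 16.5 for those of the other genes. The letters TGACAG, a hexamer bound by MEIS proteins, occurred on either strand in 4 of the 36 promoters and in 15.9% of all promoters, and TAATTA, a core bound by many homeodomains, in 0 of 36 and in 4.84% of all. Neither occurred in the 8 promoters of the lower genes.

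The 3 MEIS genes were all lower in Pcgf5-/- at day 6. Meis1, a TALE cofactor of HOX proteins, lies at chr11:18780430-18918972 (mm9). Its FPKM was 0.308 and 0.312 in WT and 0.525 and 0.762 in Pcgf5-/- at day 0, and 38.1 and 39.7 in WT and 18.9 and 21.6 in Pcgf5-/- at day 6. The gene went from near the floor to a high level in both genotypes, and the Pcgf5-/- level was 52.1% of that in WT, with a log2 fold change of -0.91 (SE 0.17, adjusted p = 0.0132). Chromosome 11 is 1 of 2 chromosomes whose genes were shifted up as a whole in the Pcgf5-/- samples, with a median log2 difference of 0.48 at day 0 and 0.38 at day 6, and chromosome 6 is the other, with 0.41 and 0.37. Meis1, Lhx1, Dlx3 and Dlx4 lie on chromosome 11 and Dlx5 and Dlx6 on chromosome 6, and the fall of Meis1 at day 6 went against this shift.

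Meis2, known from hindbrain, midbrain and ganglionic eminence development, stood apart from the rest at day 0. Its FPKM was 6.64 and 12.6 in WT and 3.01 and 2.83 in Pcgf5-/- at day 0, and 57.2 and 67.1 in WT and 25.1 and 31.5 in Pcgf5-/- at day 6. Both Pcgf5-/- samples were below both WT samples on each day. On the log2 scale the genotypes differed by -1.38 at day 0 (SE 0.26, adjusted p = 0.0628), short of the threshold, and by -1.11 at day 6 (SE 0.26, adjusted p = 0.0255). The difference between these effects was 0.27 with a 95% interval of -0.58 to 1.11, and the rise over the 6 days was 2.63 in WT and 2.90 in Pcgf5-/-. Of the 21 tested genes, Meis2 was the only 1 without a positive estimate at day 0.

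Meis3, which acts with HOX and PBX in hindbrain patterning, had 0.781 and 0.747 FPKM in WT and 1.02 and 2.36 in Pcgf5-/- at day 0, and 22.4 and 23.7 in WT and 7.65 and 12.4 in Pcgf5-/- at day 6. The pairs did not overlap on either day, with Pcgf5-/- above WT at day 0 and below it at day 6, where the log2 fold change was -1.16 (SE 0.29, adjusted p = 0.0313).

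The PBX genes were expressed from the start. Pbx2, a broadly expressed partner of MEIS and HOX proteins, had the highest level of the family at 12.5 and 12.6 FPKM in WT and 14.3 and 15.9 in Pcgf5-/- at day 0, and 47.0 and 65.0 in WT and 29.3 and 37.5 in Pcgf5-/- at day 6. It ranked first of the 21 genes in both genotypes at day 0 and in Pcgf5-/- at day 6, and its genotype difference at day 6 was -0.72 (SE 0.19, adjusted p = 0.0353).

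Pbx3 and Pbx4 were not called between the genotypes. Pbx3 was at 26.1 and 35.0 FPKM in WT and 16.3 and 21.1 in Pcgf5-/- at day 6, also apart, with a log2 difference of -0.67 (95% interval -1.23 to -0.12, adjusted p = 0.0908), close to that of Pbx2. With the replicate number as a block its adjusted p was 0.0331. Over all alternative limma fits of all samples or of the compared groups, the adjusted p of Pbx3 ran from 0.0302 to 0.151. Pbx4 was at 4.30 and 5.39 in WT and 3.81 and 6.41 in Pcgf5-/-, overlapping, with a difference of 0.04 (95% interval -0.52 to 0.60).

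**Figure D4:**
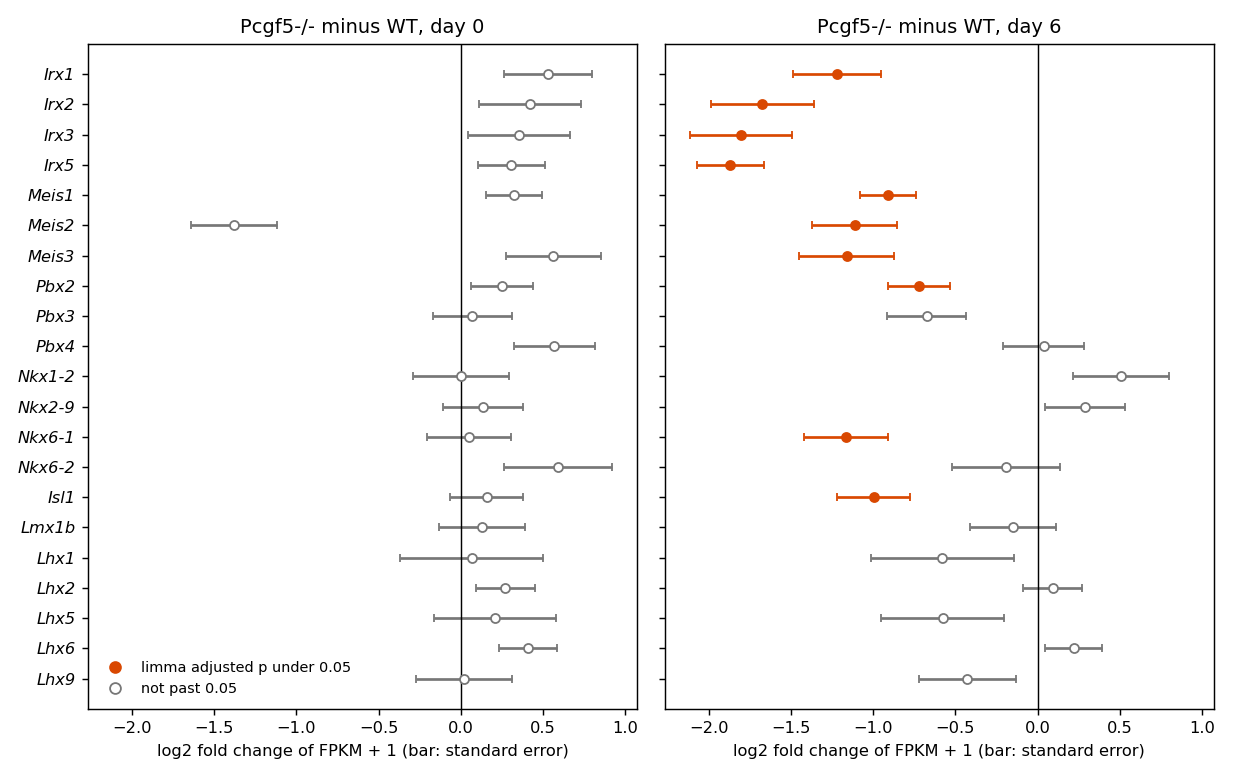
Log2 fold change of FPKM + 1, Pcgf5-/- minus WT, at day 0 (left) and day 6 (right) for 21 tested homeobox genes, with the standard error as bars and genes past a limma adjusted p of 0.05 filled. None is filled at day 0, where Meis2 at -1.38 stands apart, and 10 are filled at day 6, all below 0, with Irx5 at -1.87 the lowest.

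Among the NKX genes only Nkx6-1 differed between the genotypes by the test. Nkx6-1, a progenitor factor of the ventral neural tube and of pancreatic beta cells, had 0.0827 and 0 FPKM in WT and 0.0740 and 0.0776 in Pcgf5-/- at day 0, and 5.01 and 6.90 in WT and 2.89 and 1.42 in Pcgf5-/- at day 6. It was close to 0 in all samples of day 0, and the genotypes lay apart at day 6 with a log2 fold change of -1.17 (SE 0.26, adjusted p = 0.0209). The other tested NKX genes had day 6 differences of 0.51 (Nkx1-2), 0.29 (Nkx2-9) and -0.19 (Nkx6-2), none past the threshold, so the NKX genes did not share a direction. Nkx2-9 was called higher at day 6 than at day 0 in both genotypes. The locus of Nkx6-2 overlaps that of Inpp5a, and reads in the overlap could count for either gene. The 9 untested NKX genes were Nkx1-1, Nkx2-1, Nkx2-2, Nkx2-3, Nkx2-4, Nkx2-5, Nkx2-6, Nkx3-2 and Nkx6-3, with no value above 1.46 FPKM (Nkx6-3, in a WT sample of day 0). Nkx2-1 and Nkx2-2 were at or under 0.501 FPKM.

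Of the LIM-homeodomain genes, Isl1 was the only one called between the genotypes. Isl1, a factor of motor neurons, sensory neurons and heart progenitors, had 0.427 and 0.313 FPKM in WT and 0.331 and 0.747 in Pcgf5-/- at day 0, and 2.46 and 3.42 in WT and 0.758 and 1.18 in Pcgf5-/- at day 6. The day 0 samples overlapped and the day 6 samples did not, with a log2 fold change of -0.997 (SE 0.22, adjusted p = 0.0221). Isl1 entered the test only through its WT mean at day 6, as 1 of 2 such genes with Lhx9, so it was tested because it was high there, and its call is not independent of that filter. Isl2 was at or under 0.621 FPKM.

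Lhx5, a forebrain and hypothalamus factor with the highest mean of the LHX family, showed how much 1 sample can carry. Its FPKM was 0.105 and 0 in WT and 0.117 and 0.318 in Pcgf5-/- at day 0, and 6.24 and 1.87 in WT and 2.13 and 1.98 in Pcgf5-/- at day 6. The first WT sample of day 6 was far above the other and the Pcgf5-/- samples lay between them, with a log2 difference of -0.58 (95% interval -1.43 to 0.28, adjusted p = 0.326).

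Lhx1, the close relative of Lhx5 that acts in the early organizer and in neurons, was likewise far higher in the first WT sample of day 6 than in the other 3 samples of that day, at 4.38 and 0.815 FPKM in WT and 1.45 and 0.788 in Pcgf5-/-. The log2 difference was again -0.58 (adjusted p = 0.392). Without the first WT sample of day 6 the differences were 0.21 for Lhx1 and 0.093 for Lhx5, so their sign rests on that sample. Lhx9 was also highest there, at 1.78 FPKM against at most 0.517 in the other samples of day 6. Several endoderm markers were also highest in that sample. Gata4, an endoderm and heart factor, was at 10.6 FPKM in the first WT sample of day 6 and 0.706 in the second, and the yolk sac and liver transport protein gene Ttr at 5.62 and 0.334. Cxcr4, a chemokine receptor gene and the most abundant of the list, went the other way, at 17.9 and 31.2. The 10 endoderm markers summed to 49.1 and 33.7 FPKM in WT and 15.4 and 9.30 in Pcgf5-/- at day 6. Cxcr4 held most of that sum in the second WT sample, and was at 6.70 and 7.22 FPKM in Pcgf5-/-. The naive pluripotency markers were also higher in the first WT sample. So was the sum of the 13 neuron markers, at 622 and 447 FPKM in WT and 260 and 231 in Pcgf5-/- at day 6. The part of the endoderm, pluripotency and neuron markers in the Lhx1, Lhx5 and Lhx9 values was not tested.

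Lhx2, an eye and cortex factor, was at 2.26 and 2.25 FPKM in WT and 2.47 and 2.46 in Pcgf5-/- at day 6, a difference of 0.09 (95% interval -0.32 to 0.50), and was called higher than at day 0 in both genotypes. Lhx6, a factor of cortical interneurons, was between 0.622 and 1.51 FPKM in all samples with no call in any comparison. The midbrain dopamine neuron factor Lmx1b was at 1.10 and 1.78 FPKM in WT and 1.77 and 0.713 in Pcgf5-/- at day 6, overlapping (difference -0.15, 95% interval -0.75 to 0.45), after 0.257 and 0.217 in WT and 0.230 and 0.484 in Pcgf5-/- at day 0. Lhx3, Lhx4 and Lhx8 were at or under 0.453 FPKM and Lmx1a at or under 0.111.

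The DLX genes were barely expressed. The highest was Dlx3, known from placenta, skin and bone, with 0.165 and 0 FPKM in WT and 0.296 and 0.0775 in Pcgf5-/- at day 0, and 0.450 and 1.15 in WT and 0.895 and 0.835 in Pcgf5-/- at day 6, where the genotypes overlapped. Dlx1, Dlx2, Dlx4, Dlx5 and Dlx6 were at or under 0.424 FPKM in every sample. None passed the filter, so none was tested here, and no difference between the genotypes is read from such low values.

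The genotype effect was then compared between the days. It differed for 4 of the 21 genes, lower at day 6 in each case, where 1.75% of all tested genes were called in that direction and 1.34% in the other. The change in the effect was -2.17 for Irx5 (SE 0.29, adjusted p = 0.0243), -2.16 for Irx3 (SE 0.44, adjusted p = 0.0440), -2.09 for Irx2 (SE 0.44, adjusted p = 0.0485) and -1.23 for Meis1 (SE 0.24, adjusted p = 0.0426). Irx3, Irx5 and Meis1 were at or under 1.24 FPKM in all samples of day 0, where log2(FPKM + 1) keeps differences small. Their change in effect therefore mostly reflects the difference at day 6. Irx1 at -1.75 just missed the threshold (adjusted p = 0.0508), and so did Meis3 at -1.72 (adjusted p = 0.0614). The 4 calls are near the threshold, and none of them held in each fit without 1 sample.

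The calls at day 6 also depend on the number of samples in the fit. Between 2 and 9 of the 21 genes were lower in Pcgf5-/- when 1 of the 8 samples was left out, the lowest count being that without the first Pcgf5-/- sample of day 6. The count was 4 without the second WT sample of day 6, 5 without the second Pcgf5-/- sample and 6 without the first WT sample. Leaving out a sample of day 6 leaves that group with 1 sample, assumed to vary like the others, and calls over all 13214 genes, in either direction, dropped as well, from 2197 to 297, 502, 921 and 1173 in the same order. The folds moved less than the counts, with Irx3 between -1.99 and -1.62 and Irx1 between -1.40 and -1.04, and the widest relative range among the 10 called genes was that of Pbx2, -0.95 to -0.49. Irx5 was the only gene called lower in each of these fits.

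Partners and relatives of these factors did not all go the same way. Of the 10 LIM cofactor and LIM-only genes 9 were tested, and at day 6 in Pcgf5-/- 3 were lower and 1 higher. Over all tested genes 7.05% were called lower and 9.57% higher. Ldb1, the bridging factor that LIM-homeodomain proteins need, was at 79.5 and 87.3 FPKM in WT and 60.0 and 59.4 in Pcgf5-/- (log2 fold change -0.47, adjusted p = 0.0317). The others lower were Lmo1 (-1.32) and Ssbp2 (-0.79), and Ssbp4, another cofactor of LDB1, was higher (0.96, adjusted p = 0.0140). Ssbp3 had the highest level of the list, at 93.8 and 111 FPKM in WT and 88.1 and 99.8 in Pcgf5-/- at day 6, overlapping.

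Of the 5 other TALE genes 1 was higher and 1 lower at day 6, beside 9.57% and 7.05% of all tested genes. Tgif1, a TALE repressor of SMAD-driven transcription and the highest of its list, was at 52.7 and 51.8 FPKM in WT and 104 and 91.1 in Pcgf5-/- (0.88, adjusted p = 0.00560), and Pknox2, a MEIS relative, was at 10.9 and 17.5 in WT and 6.87 and 7.02 in Pcgf5-/- (-0.90, adjusted p = 0.0368). The fall was thus not shared by every TALE gene.

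Of the 25 other NK-like homeobox genes 9 were tested, with 3 lower and 1 higher in Pcgf5-/- at day 6. The shares over all tested genes were 7.05% and 9.57%. Dbx1, a progenitor factor of spinal interneurons, was listed at 0 in all 4 samples of day 0 and at 95.4 and 71.1 FPKM in WT and 13.1 and 24.9 in Pcgf5-/- at day 6 (-2.12, adjusted p = 0.00564). Dbx2 (-0.65, adjusted p = 0.0491) and Msx2 (-0.91, adjusted p = 0.0308) were also lower, both below 3 FPKM at day 6. Nanog, a pluripotency factor with a homeodomain related to the NK class, the highest of the list and also 1 of the naive pluripotency markers above, was at 43.0 and 22.2 FPKM in WT and 144 and 139 in Pcgf5-/- (2.16, adjusted p = 0.00421).

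The remaining marker lists give the setting of the day 6 differences. Of 7 tested neural crest markers 2 were lower in Pcgf5-/- and 0 higher, and of 6 endoderm markers 1 was lower and 0 higher. Of 4 cardiac mesoderm markers 2 were higher and 0 lower, and of 5 trophoblast markers 1 was higher and 0 lower. Over all tested genes 7.05% were called lower and 9.57% higher. Of the 4 cardiac mesoderm markers, Myl4 and Myl7 lie on chromosome 11, which was shifted up in Pcgf5-/- (median log2 difference 0.38 at day 6). Myl4 was already at 3.31 and 5.20 FPKM in Pcgf5-/- and 1.61 and 1.44 in WT at day 0. The part of that shift in the marker calls was not tested. Of the 5 trophoblast estimates 2 were above 0 and 3 below. Summed, the trophoblast list was at 134 and 270 FPKM in WT and 78.7 and 110 in Pcgf5-/- at day 6. None of the 4 mesendoderm markers and none of the 11 feeder fibroblast markers was called between the genotypes at day 6. The feeder fibroblast markers summed to 287 and 179 FPKM in WT and 181 and 602 in Pcgf5-/- at day 0, and to 16.4 to 39.5 in the 4 samples of day 6. At day 0 none of the genes of any marker list or related list was called between the genotypes. The part of feeder RNA in the day 0 levels of the homeobox genes was not tested.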

How the data were processed

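Poly(A) RNA of 8 mESC samples was analysed. Per the methods and the submitters' processing notes, the authors cut off adapters and low-quality bases, dropped identical duplicate reads, which lowers the most abundant transcripts, aligned to mm9 with TopHat2 2.0.4 and estimated FPKM with Cufflinks 2.1.1. The annotation and strand setting are not given in the sources used here. The deposited FPKM are relative to gene length and library size and hold no fragment counts.

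Values were tested as log2(FPKM + 1) in 1 limma 3.58.1 fit (R 4.3.3, trended variance, no replicate block) of all 8 samples, for genes with a mean over 1 FPKM in a group, with Benjamini-Hochberg adjustment and tests on simulated data. Tables were made with Python 3.11.15 and pandas 2.3.3. Genes are given with the value in every sample where they passed 0.05 between genotypes or in the difference between days, or had the highest mean of their family, and others by range. The values given for Pbx3, Pbx4, Lhx1, Lhx2, Lmx1b, Gata4, Ttr, Cxcr4 and Pcgf5 were added after their values were seen. The genes and all lists (LIM cofactors, other TALE and NK-like genes, markers of naive pluripotency, neural progenitors, neurons, neural crest, mesendoderm, endoderm, cardiac mesoderm, trophoblast and feeders) were chosen with earlier results of these data known. Alternatives were another pseudocount and FPKM minimum, no filter, quantile normalization, replicate blocks, only the compared groups, no variance trend, chromosome centring and leaving out each sample. The labels give no batch or date. Results for 2 of the 45 genes are not reported here.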

Additional observations from a re-analysis of the deposited data

Results flagged for a closer look

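For 4 genes the effect of genotype differed between day 0 and day 6 in the limma test of that difference. The log2 difference between Pcgf5-/- and WT was lower at day 6 than at day 0 by -2.17 for Irx5, -2.16 for Irx3, -2.09 for Irx2 and -1.23 for Meis1, with adjusted p of 0.0243, 0.0440, 0.0485 and 0.0426. For each of them the estimate was above 0 at day 0 (0.31, 0.35, 0.42 and 0.32) without passing the test and below 0 at day 6 in both Pcgf5-/- samples against both WT samples. At day 0 Irx3, Irx5 and Meis1 were at or under 1.24 FPKM in all samples, where log2(FPKM + 1) keeps a genotype difference small. With 2 samples in each group, no group was large enough to look for a single outlying sample.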

How the results depend on the processing

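Of the 10 genes lower in Pcgf5-/- at day 6, Irx2, Irx5 and Meis1 stayed past 0.05 under every alternative fit of all samples or of the compared groups, and Irx5 alone also in every fit without 1 sample. No called gene changed direction under any alternative, whereas without the first WT sample of day 6 the day 6 differences of Lhx1 and Lhx5, which were not called, became 0.21 and 0.093. On leaving out 1 sample these ranged from -1.36 to 0.21 for Lhx1 and from -1.24 to 0.093 for Lhx5. The count of 10 became 6 with a pseudocount of 0.1 and ran from 2 to 9 on leaving out 1 sample, where calls over all genes in either direction went from 2197 to 1903 and to between 297 and 1977. At day 0 the count of 0 lower genes ranged from 0 to 1 on leaving out 1 sample. Over the days, the 17 genes higher in WT became 11 with a mean over 5 FPKM required, which tests fewer genes. The count of 0 lower at day 6 in WT became 1 without a filter, with quantile normalization and with chromosome centring and ranged from 0 to 1 on leaving out 1 sample, and in Pcgf5-/- it became 1 without a filter, with the same range. For the difference between days, the 4 genes became 2 with a pseudocount of 0.1, 0 without a filter and 1 with chromosome centring. Calls over all genes in either direction went from 408 to 251, 86 and 364 in the same order. On leaving out 1 sample the change ran from -2.34 to -2.01 for Irx5 and from -2.63 to -1.68 for Irx3. It ran from -2.51 to -1.68 for Irx2 and from -1.34 to -1.13 for Meis1. The causes were not tested. The labels share only replicate numbers between groups, and the deviations of same-numbered samples correlated at 0.39 between the genotypes at day 6, 0.10 at day 0 and -0.08 to -0.02 otherwise. The study's methods speak of paired samples without saying what pairs them. With a replicate block the count at day 6 was 11, with Pbx3 added (adjusted p = 0.0331), and the difference between days 3. Calls over all genes were then 2410 and 429. With a replicate block for each day the counts were 11 at day 6, 1 lower at day 0 (Meis2) and 7 for the difference between days, where calls over all genes rose from 2197 to 3235, from 44 to 282 and from 408 to 1167. Low FPKM limit what can be seen of the 22 untested genes, none of which was above 1.46 FPKM.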
